A study of Mus musculus with 32 samples.

Results

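The meiosis and piRNA pathway genes were 42 listed genes of the germ line, named by symbol, and all 42 were found among the 53715 genes of the 2 tables of expected counts. They were followed in polyA RNA of 2 brain regions, amygdala and hippocampus, taken from the same 16 adult males, 4 of each of 4 genotypes, giving 32 libraries. All mice were offspring of 129S1/SvImJ *Kmt2a*+/- fathers and C57BL/6J *Kdm5c*+/- mothers, and so shared 1 hybrid background. The 4 genotypes were wild type (WT), *Kmt2a* heterozygous (*Kmt2a*-HET, *Kmt2a*+/-), *Kdm5c* hemizygous knockout (*Kdm5c*-KO, *Kdm5c*-/y) and the double mutant (DM, *Kmt2a*+/-, *Kdm5c*-/y). Both mutant alleles were carried constitutively in the germ line: the *Kmt2a* allele was made by removing loxP-flanked exons with a ROSA26 Cre-ERT2 line, and every cell of a mutant mouse carried its allele. Males carry a single *Kdm5c*, which lies on the X chromosome, so the *Kdm5c*-KO and DM mice had no intact copy, and together their 8 libraries of a region are called *Kdm5c*-deficient and those of WT and *Kmt2a*-HET *Kdm5c*-intact.

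The piRNA pathway protects the genome of germ cells from transposons. PIWI proteins bind small piRNAs, Tudor domain proteins dock on methylated arginines of the PIWI proteins, and helicases and scaffolds gather them in granules beside the nucleus, where piRNAs are made and matured. Meiosis pairs the homologous chromosomes: SPO11 cuts the DNA, recombinases and mismatch repair homologues turn the cuts into crossovers, cohesins and axis proteins organise the chromosomes, and the synaptonemal complex zips the homologues together. Many germ line genes are kept low in somatic tissue, where DNA methylation and repressor complexes that hold E2F6, MGA and MAX act at their promoters. KDM5C removes methyl groups from lysine 4 of histone H3, a mark of active promoters, and KMT2A writes that mark.

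Repressors of this kind recognise the E-box CACGTG and the E2F-type site GCGGGA, so both were searched on both strands, the E2F-type site also as TCCCGC, in the window from 250 bases before to 50 after each RefSeq start (GRCm38.p6). Of the 42 genes 37 had a window. At least 1 of these motifs stood in 22 of the 37 (59.5%), against 27.5% of 27025 genes. The E-box was present in 14 (37.8%), against 8.09% of all genes, and the E2F-type site in 15 (40.5%), against 22.0%. Among the genes called below for loss of *Kdm5c* 8 of 11 held a motif, and among the others 14 of 26. Of 40 further genes of the same pathways 65.0% did. A match describes the letters only, and binding was not measured. The 150 bases before the start of 4 genes that head the results are printed 5′ to 3′ on the coding strand with the motifs in capitals, to show where the motifs lie. The *D1Pas1* stretch is chr1:186967266-186967415 (+), that of *Cyct* chr2:76360454-76360603 (−), that of *Stk31* chr6:49395389-49395538 (+) and that of *Sycp3* chr10:88459437-88459586 (+).
D1Pas1: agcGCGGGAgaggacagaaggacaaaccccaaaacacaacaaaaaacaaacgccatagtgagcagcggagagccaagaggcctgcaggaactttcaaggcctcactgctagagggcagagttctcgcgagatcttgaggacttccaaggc
Cyct: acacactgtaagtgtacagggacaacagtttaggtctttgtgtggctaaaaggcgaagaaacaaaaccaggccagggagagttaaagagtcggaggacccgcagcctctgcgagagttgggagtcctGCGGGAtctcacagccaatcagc
Stk31: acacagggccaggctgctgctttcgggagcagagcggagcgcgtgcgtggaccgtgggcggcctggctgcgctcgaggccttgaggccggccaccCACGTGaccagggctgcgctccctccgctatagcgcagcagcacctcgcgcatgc
Sycp3: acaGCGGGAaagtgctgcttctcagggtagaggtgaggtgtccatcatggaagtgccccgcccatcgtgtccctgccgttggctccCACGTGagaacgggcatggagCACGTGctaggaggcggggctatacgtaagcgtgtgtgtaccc
*D1Pas1* and *Cyct* held 1 E2F-type site each, with its first base at position −147 and −23 from the start, and *Stk31* held 1 E-box, at −55. *Sycp3* held both kinds, with E-boxes at −64 and −43 and an E2F-type site at −147. Among other genes described below, *Naa11* held TCCCGC at −31, *Ddx4* an E-box at −29 and GCGGGA at −136, *Rec8* TCCCGC at −38, and *Syce2* an E-box at −88 and GCGGGA at −34, whereas no match was found in the windows of *Mei1*, *Msh4* and *Syce1*. The windows of *Mei1* and *Msh4* follow the RefSeq start and lie inside the gene spans printed below, away from the outermost start, which was not searched.

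Amygdala libraries held 19215503 to 26033615 counts and hippocampal libraries 19322262 to 27798980, so a count of 3, used as the floor of detection, stood for 0.108 to 0.156 CPM (counts scaled to library size). Hippocampal marker genes summed to 377 to 1016 CPM in hippocampal and 209 to 317 CPM in amygdala libraries, whereas the list of amygdala markers overlapped between the regions (182 to 478 CPM in the amygdala, 184 to 293 in the hippocampus). *Kdm5c* itself fell by 0.30 on the log2 scale in deficient libraries of both regions (DESeq2 *p-adj* = 0.0301 and 0.000306), and the allele lacks exons, not the whole gene, so reads of the rest were still counted. *Kmt2a* counts did not separate *Kmt2a*-HET from WT (log2 difference 0.01 ± 0.24 (SE) and 0.21 ± 0.24), and a gene-level count cannot check a deletion of a few exons. Markers of choroid plexus, the secretory epithelium of the ventricles, passed 500 CPM in 1 amygdala library (DM 1) and in 6 hippocampal libraries (WT 3, *Kdm5c*-KO 1, 3 and 4, DM 2 and 4). Results in the hippocampus are therefore also given without those libraries.

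Many of the 42 genes were low in every genotype: 13 (amygdala) and 15 (hippocampus) stayed under 10 counts in every library of the region, while 20 and 18 had a count in every library. In the amygdala 32 of the 42 exceeded 3 counts in at least 4 libraries, and in the hippocampus 29 did, all of them also detected in the amygdala, compared with 38.1% and 37.4% of all genes. These counts and shares pool the genotypes. *D1Pas1* and *Cyct* in both regions and *Msh4* in the amygdala passed through *Kdm5c*-deficient libraries alone, so detection here does not mean detection in WT. *Stra8*, which drives entry into meiosis, and *Tex101*, a sperm membrane protein, had no count in any of the 32 libraries. *Sohlh2* was at 0 in all 16 amygdala libraries and *Hormad1* in all 16 hippocampal libraries, which at these depths allows up to 0.156 CPM in a library. In fragments per library the genes were unequal: *Tdrd7*, *Tdrkh* and *Brdt* together took 78.9% of the summed counts of the 42 in the amygdala and 79.3% in the hippocampus. On the scale per length, WT amygdala held 36.1 ± 9.78 TPM (counts scaled to transcript length and depth; SD, n = 4) of *Tdrd7*, 23.7 ± 6.40 of *Tdrkh* and 5.23 ± 0.798 of *Brdt*. By that scale 32 of the 42 in the amygdala and 33 in the hippocampus averaged under 1 TPM. By role, both regions detected 8 of 8 Tudor domain genes, 3 of 3 meiotic cohesins and 5 of 7 synaptonemal complex and axis genes, but 2 of 3 PIWI genes and 1 of 4 transcription regulators. Since the libraries came from whole tissue, a lower level could mean fewer cells that make an RNA or less RNA per cell, and these cannot be told apart.

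**Figure D1:**
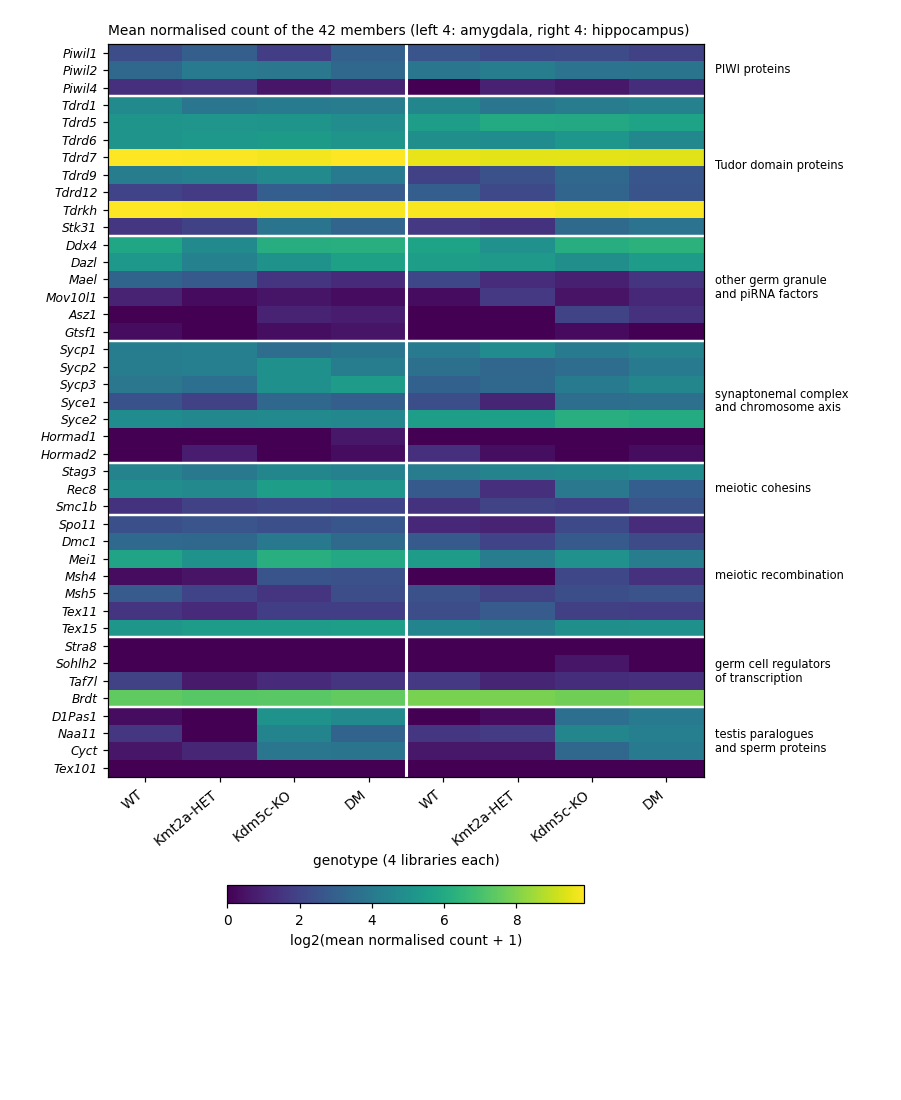
Mean normalised count of each of the 42 genes, drawn as log2(mean + 1), in the 4 genotypes of each region, with genes as rows ordered by role and n = 4 libraries per column. *Tdrd7*, *Tdrkh* and *Brdt* fill the bright rows in every column, while *D1Pas1* and *Cyct* are brighter in the *Kdm5c*-KO and DM columns.

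Loss of *Kdm5c* was accompanied by higher counts of a minority of these genes. In a DESeq2 fit with 1 term for each mutation, *p-adj* under 0.1 was reached by 8 of the 31 genes that received an adjusted p in the amygdala, all higher in deficient libraries, where 1.68% of the genes tested across the genome were called, 1.39% higher and 0.29% lower. In the hippocampus 9 of 29 were called, all higher, where 2.66% of all genes were called, 2.11% higher and 0.55% lower. The shared calls were *Cyct*, *D1Pas1*, *Ddx4*, *Naa11*, *Stk31* and *Sycp3*, which made up 75.0% of the amygdala calls and 66.7% of the hippocampal calls. *Msh4* and *Mei1* were called in the amygdala alone, and *Syce1*, *Syce2* and *Rec8* in the hippocampus alone, but the test of a difference between the regions called none of the 24 genes it covered (0.0901% of all genes were called). That fit did not use the pairing of regions by mouse. With the mouse as a block the test also called none of the 42 (0.0836% of all genes). No gene of the 42 was called lower between genotypes in the fits to all libraries of a region. Lower calls came under other settings: *Mei1* in DM against WT hippocampus with those 2 groups alone (−1.33 ± 0.42, *p-adj* = 0.0912), *Mael* with *Kdm5c* loss in the amygdala without DM 4 or *Kmt2a*-HET 1 (0.0802 and 0.0573), and *Ddx4* in *Kmt2a*-HET amygdala without WT 2. By edgeR 6 genes were called in each region, where 0.665% (amygdala) and 0.931% (hippocampus) of all genes were, and with ERCC spike-in scaling 2 (amygdala) and 4 (hippocampus), where 0.160% and 0.104% of all genes were. *D1Pas1* and *Cyct* kept their calls in both regions with ERCC scaling, as did *Naa11* and *Stk31* in the hippocampus. The others lost theirs with the same direction (*p-adj* 0.121 to 0.997 in the amygdala for *Naa11*, *Msh4*, *Sycp3*, *Stk31*, *Ddx4* and *Mei1*, and 0.574 to 1.0 in the hippocampus for *Syce1*, *Ddx4*, *Rec8*, *Syce2* and *Sycp3*). The median log2 difference over the genes was 0.26 (amygdala) and 0.34 (hippocampus), against −0.01 in each region over all genes. Groups that did not overlap, with every deficient library above every intact one, were found for *D1Pas1*, *Cyct*, *Sycp3* and *Msh4* in the amygdala and for *D1Pas1* and *Cyct* in the hippocampus, a pattern seen in 0.267% and 0.211% of all genes. For *Msh4* the lowest deficient and the highest intact library held 1 read each.

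**Figure D2:**
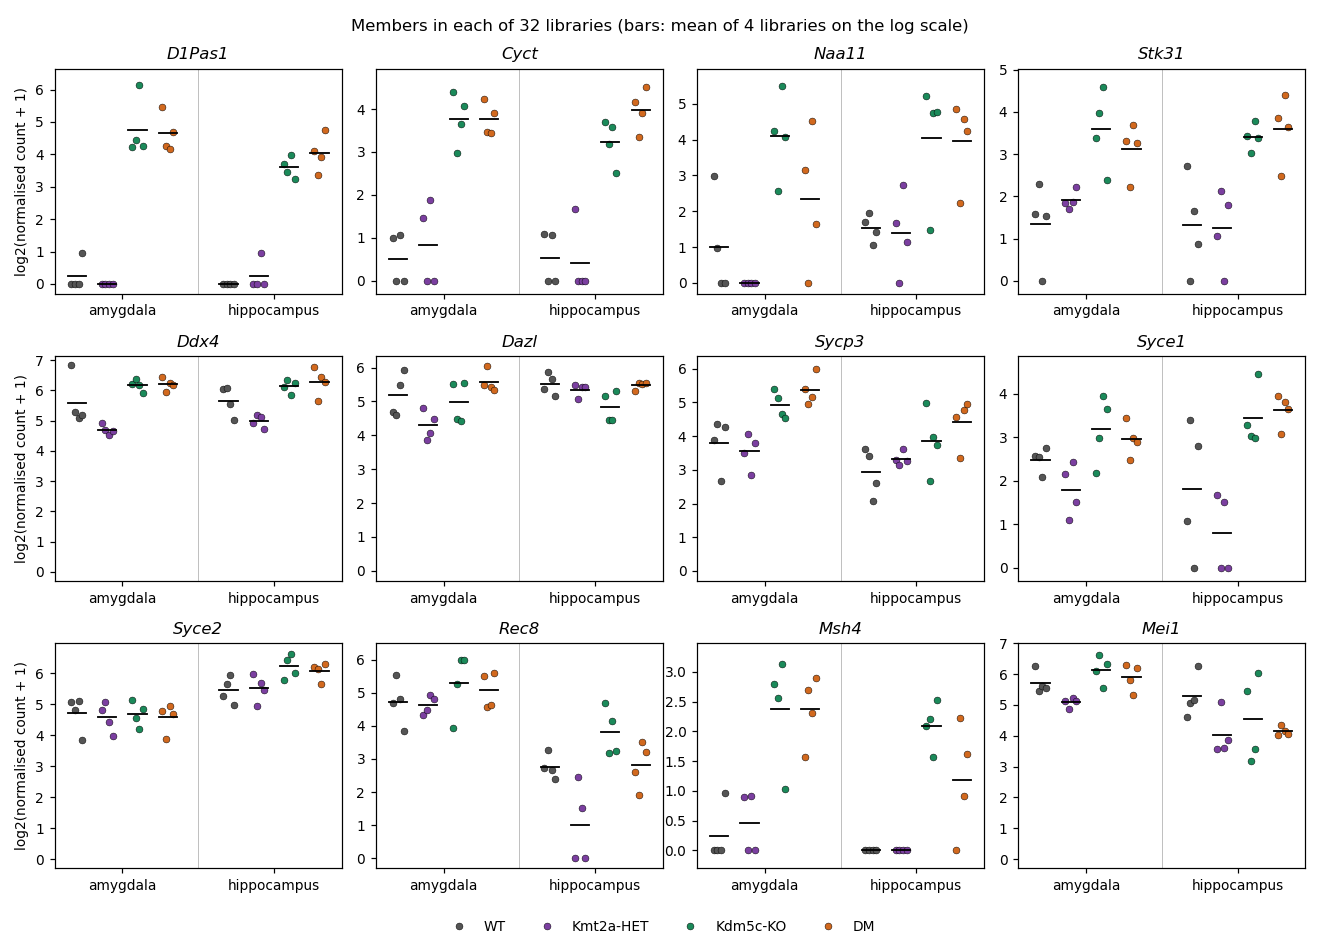
Normalised counts of 12 genes in all 32 libraries, drawn as log2(count + 1), with 1 point per library, a bar at the mean of the 4 libraries on that scale, and genotypes along the horizontal axis of each region. The 8 deficient libraries of each region lie above the 8 intact libraries for *D1Pas1* and *Cyct*, and the *Dazl*, *Syce2* and *Mei1* panels show overlap between genotypes.

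Among the genes with the largest differences were testis-specific relatives of housekeeping genes. *D1Pas1* (ENSMUSG00000039224.1, chr1:186967416-186970627, mm10) encodes a DEAD-box RNA helicase of male germ cells, a processed copy of *Ddx3x*, and overlaps Gm37912 on the opposite strand. Amygdala libraries of WT mice 1 to 4 held normalised counts of 0, 0, 0 and 0.956, those of *Kmt2a*-HET 0, 0, 0 and 0, those of *Kdm5c*-KO 17.8, 20.6, 69.5 and 18 and those of DM mice 43.3, 18.2, 16.9 and 24.8. Hippocampal libraries of WT mice held normalised counts of 0, 0, 0 and 0, those of *Kmt2a*-HET 0, 0, 0.932 and 0, those of *Kdm5c*-KO 11.9, 9.91, 14.8 and 8.52 and those of DM mice 16.1, 9.25, 14 and 26.1. Counts in the intact libraries never passed 1 read, and all 16 deficient libraries had more. Summed over the 8 libraries each, 229 reads stood against 1 in the amygdala (a ratio of 239.7, exact Poisson interval 42.6 to 9508.9) and 116 against 1 in the hippocampus (105.8, 18.6 to 4215.1). The log2 difference with *Kdm5c* loss was 6.96 ± 0.82 in the amygdala (*p-adj* = 4.65e-14) and 5.78 ± 0.80 in the hippocampus (*p-adj* = 4.51e-10). The level stayed far below that of its parent gene: *D1Pas1* averaged 1.54 ± 1.30 TPM in *Kdm5c*-KO amygdala, where *Ddx3x* averaged 115 ± 20.8 TPM.

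*Cyct* (ENSMUSG00000056436.4, chr2:76353942-76360450) encodes the cytochrome c of spermatids. For the amygdala of WT mice 1 to 4 the values were 0.989, 0, 1.08 and 0, for *Kmt2a*-HET 1.73, 0, 2.66 and 0, for *Kdm5c*-KO 20.2, 6.86, 11.6 and 15.9 and for DM 17.7, 10.02, 9.95 and 14. For the hippocampus of WT mice 1 to 4 the values were 1.12, 0, 1.08 and 0, for *Kmt2a*-HET 2.19, 0, 0 and 0, for *Kdm5c*-KO 11.9, 8.11, 10.9 and 4.73 and for DM 16.9, 9.25, 14 and 21.9. The lowest deficient library of each region was above the highest intact one. Summed over 8 libraries, 103 reads stood against 7 in the amygdala and 103 against 4 in the hippocampus, ratios of 15.4 (exact Poisson interval 7.21 to 39.3, counting error only) and 23.5 (8.90 to 87.8). *Cyct* rose by 3.98 ± 0.65 on the log2 scale in the amygdala and by 4.51 ± 0.78 in the hippocampus (*p-adj* = 5.16e-07 and 2.42e-06).

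*Naa11* (ENSMUSG00000046000.5, chr5:97382198-97392379) is the germ line counterpart of *Naa10*, the catalytic subunit of an N-terminal acetyltransferase. *Naa11* in the amygdala stood at 6.92, 0.971, 0 and 0 (WT), 0, 0, 0 and 0 (*Kmt2a*-HET), 17.8, 4.90, 44.4 and 15.9 (*Kdm5c*-KO) and 7.87, 0, 21.9 and 2.15 (DM). *Naa11* in the hippocampus stood at 2.25, 2.88, 1.08 and 1.70 (WT), 2.19, 0, 5.59 and 1.23 (*Kmt2a*-HET), 35.8, 1.80, 25.7 and 26.5 (*Kdm5c*-KO) and 27.9, 3.70, 22.8 and 17.7 (DM). The spread among deficient mice was wide, and the groups overlapped: mouse 2 of both deficient genotypes was low in each region, DM 4 stood at 2.15 in the amygdala, and WT 1 reached 6.92 there. The log2 difference was 4.25 ± 0.98 in the amygdala (*p-adj* = 0.0019) and 3.22 ± 0.61 in the hippocampus (*p-adj* = 3.77e-05). Leaving out single libraries moved the amygdala value from 3.70 (without DM 3) to 5.67 (without WT 1), with the call kept. The somatic relatives of these genes, near in sequence, were not called: with *Kdm5c* loss *Ddx3x* differed by −0.02 in both regions, *Naa10* by 0.02 and −0.01, and *Cycs*, the somatic cytochrome c, by −0.03 and 0.02. The methods describe unique alignments, but the values are expected counts, and how reads that match both relatives were assigned was not checked. *Tex101*, the remaining sperm gene, had no counts.

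**Figure D3:**
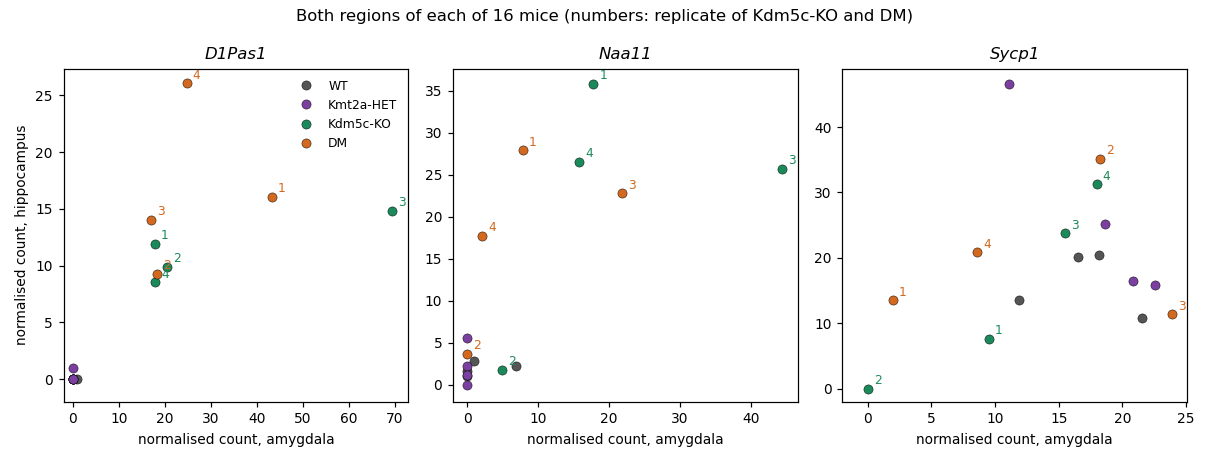
Normalised counts of *D1Pas1*, *Naa11* and *Sycp1* in the amygdala (horizontal axis) and hippocampus (vertical axis) of each of the 16 mice, with 1 point per mouse. *Naa11* is low in both regions of *Kdm5c*-KO mouse 2 and DM mouse 2, and *Sycp1* is at 0 in both regions of *Kdm5c*-KO mouse 2.

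Among the germ granule and Tudor domain genes, *Ddx4* and *Stk31* rose with *Kdm5c* loss in both regions. *Stk31* (ENSMUSG00000023403.14, chr6:49395604-49469501) encodes a Tudor domain protein with a kinase-like domain and overlaps Gm17060 on the opposite strand. WT amygdala values of *Stk31* were 1.98, 3.88, 0 and 1.91, *Kmt2a*-HET values 2.60, 2.26, 2.66 and 3.71, *Kdm5c*-KO values 9.50, 14.7, 23.2 and 4.23 and DM values 8.86, 3.64, 11.9 and 8.61. WT hippocampal values of *Stk31* were 5.62, 0, 2.16 and 0.849, *Kmt2a*-HET values 1.10, 3.40, 0 and 2.45, *Kdm5c*-KO values 9.77, 7.21, 12.9 and 9.47 and DM values 13.5, 4.63, 20.1 and 11.5. In each region 7 of 8 deficient libraries were above the highest intact library. The log2 difference was 2.11 ± 0.52 (*p-adj* = 0.00578) in the amygdala and 2.57 ± 0.56 (*p-adj* = 0.000768) in the hippocampus.

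*Ddx4* (ENSMUSG00000021758.14, chr13:112598333-112652475), the Vasa helicase that marks germ granules, was well above the floor in WT brain. Amygdala libraries of WT mice held values of 113, 37.9, 33.4 and 35.4, those of *Kmt2a*-HET 29.5, 24.8, 22.2 and 24.1, those of *Kdm5c*-KO 73.6, 81.4, 71.5 and 59.2 and those of DM mice 86.6, 61, 75.6 and 71.1. Hippocampal libraries of WT mice held values of 65.2, 66.1, 45.4 and 31.4, those of *Kmt2a*-HET 29.6, 35.1, 33.5 and 25.8, those of *Kdm5c*-KO 68.4, 80.2, 57.4 and 74.8 and those of DM mice 108, 49, 85.8 and 77.1. WT amygdala library 1 was above every deficient amygdala library, while in the hippocampus 6 of 8 deficient libraries exceeded the highest intact one. *Ddx4* rose by 0.95 ± 0.27 in the amygdala (*p-adj* = 0.0312) and by 0.89 ± 0.22 in the hippocampus (*p-adj* = 0.00606). These values average unlike backgrounds: DM against *Kmt2a*-HET gave 1.55 ± 0.35 and 1.37 ± 0.29, both called, whereas *Kdm5c*-KO against WT gave 0.38 ± 0.33 and 0.44 ± 0.28, neither called, and the interaction was not called in either region. The amygdala call was lost on leaving out any of 4 single libraries (*Kmt2a*-HET 2, 3 or 4, or DM 1, *p-adj* 0.1 to 0.119) and in edgeR (*p-adj* = 0.145).

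*Dazl*, an RNA-binding protein that promotes translation in germ cells, was not called for *Kdm5c* loss in either region (log2 difference 0.53 with *p-adj* = 0.771, and −0.26 with 0.798). For the amygdala of WT mice 1 to 4 the values were 24.7, 23.3, 44.2 and 60.2, for *Kmt2a*-HET 26.9, 13.5, 16 and 21.3, for *Kdm5c*-KO 45.1, 21.6, 20.3 and 45.5 and for DM 44.3, 64.7, 41.8 and 39.8. For the hippocampus of WT mice 1 to 4 the values were 40.5, 57.5, 49.8 and 34.8, for *Kmt2a*-HET 43.9, 32.8, 41.9 and 41.7, for *Kdm5c*-KO 34.7, 20.7, 20.8 and 38.8 and for DM 38.9, 45.3, 44.7 and 45.9. *Asz1*, which tethers piRNA factors near mitochondria, had no count in any intact library of either region, against 5 deficient amygdala libraries and 3 deficient hippocampal libraries with counts, the highest at a normalised 9.47. *Mael*, needed for transposon silencing, went the other way in the amygdala (−2.18 ± 0.78, *p-adj* = 0.213) and was not called. *Gtsf1* and *Mov10l1*, a PIWI partner and the helicase that feeds piRNA precursors to PIWI proteins, averaged at most 0.456 and 2.12 normalised counts in any group. The PIWI genes themselves showed no called difference: *Piwil2* averaged 9.06 to 16.7, *Piwil1* 2.49 to 7.18 and *Piwil4* 0 to 1.79 normalised counts over the 8 groups.

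The remaining Tudor domain genes were not called for *Kdm5c* loss. *Tdrd7*, a granule component also used outside the germ line, averaged 697 to 933 normalised counts over the 8 groups. *Tdrkh*, which anchors PIWI proteins at mitochondria, averaged 829 to 946. *Tdrd5* averaged 27.5 to 64.5, *Tdrd6* 23.5 to 41.3 and *Tdrd1* 13.8 to 25.7. *Tdrd12* averaged 2.98 and 2.32 in WT and *Kmt2a*-HET amygdala and 6.68 and 6.18 in *Kdm5c*-KO and DM amygdala, with *p-adj* = 0.302 for the log2 difference of 1.28.

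*Sycp3* (ENSMUSG00000020059.9, chr10:88459569-88473236), a lateral element protein of the synaptonemal complex, rose in both regions. *Sycp3* in the amygdala stood at 13.8, 19.4, 5.39 and 18.2 (WT), 10.4, 15.8, 6.21 and 13 (*Kmt2a*-HET), 41.6, 34.3, 24.1 and 22.2 (*Kdm5c*-KO) and 41.3, 30.1, 34.8 and 62.5 (DM). *Sycp3* in the hippocampus stood at 11.2, 9.59, 3.24 and 5.09 (WT), 8.77, 7.92, 11.2 and 8.59 (*Kmt2a*-HET), 30.4, 5.40, 14.8 and 12.3 (*Kdm5c*-KO) and 22.8, 9.25, 26.3 and 30.2 (DM). All 8 deficient amygdala libraries and 6 of 8 deficient hippocampal libraries were above the intact ones. The log2 difference was 1.5 ± 0.29 in the amygdala (*p-adj* = 5.64e-05) and 1.19 ± 0.38 in the hippocampus (*p-adj* = 0.0714). The hippocampal call was lost on leaving out 1 of 10 libraries (WT 3 or 4, *Kmt2a*-HET 1, 2 or 4, *Kdm5c*-KO 1 or 3, DM 1, 3 or 4, *p-adj* 0.108 to 0.238), in edgeR (0.197) and with the replicate block (0.12). The amygdala call was lost with ERCC scaling alone (1.40, *p-adj* = 0.476). *Sycp3* overlaps *Chpt1* on the opposite strand, and a directional kit was used, but whether the counting used strand was not given in the sources used here.

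Of the central element genes, *Syce1* (chr7:140777229-140787852) and *Syce2* (chr8:84872111-84888221) were called in the hippocampus. WT hippocampal values of *Syce1* were 1.12, 9.59, 0 and 5.94, *Kmt2a*-HET values 2.19, 0, 1.86 and 0, *Kdm5c*-KO values 8.69, 7.21, 6.92 and 20.8 and DM values 14.4, 7.40, 13.1 and 11.5. WT amygdala values of *Syce1* were 4.95, 4.85, 3.23 and 5.74, *Kmt2a*-HET values 3.47, 1.13, 4.43 and 1.85, *Kdm5c*-KO values 3.56, 6.86, 14.5 and 11.6 and DM values 9.84, 4.56, 6.96 and 6.46. The highest intact library was exceeded by 6 of 8 deficient amygdala libraries and by 4 of 8 deficient hippocampal ones, and the log2 difference was 1.12 in the amygdala (*p-adj* = 0.317), against 2.20 ± 0.60 in the hippocampus (*p-adj* = 0.0186). *Syce2* had hippocampal values of 37.1, 48.9, 60.6 and 30.6 for the WT mice, 62.5, 29.4, 50.3 and 42.9 for *Kmt2a*-HET, 54.3, 85.6, 97.9 and 63.4 for *Kdm5c*-KO and 71.9, 69.4, 49.1 and 78.2 for DM. Amygdala libraries of WT mice held values of 32.6, 27.2, 33.4 and 13.4, those of *Kmt2a*-HET 26.9, 32.7, 20.4 and 14.8, those of *Kdm5c*-KO 34.4, 22.5, 17.4 and 27.5 and those of DM mice 26.6, 13.7, 29.8 and 24.8. It rose by 0.65 ± 0.20 in the hippocampus (*p-adj* = 0.0456) and differed by −0.03 in the amygdala, and the difference between the regions was 0.69 ± 0.30 (*p-adj* = 1.0). The *Syce2* call was lost without any 1 of 6 libraries (WT 1 or 4, *Kmt2a*-HET 2, *Kdm5c*-KO 2 or 3, DM 4, *p-adj* 0.102 to 0.138), and both calls were lost in edgeR (0.129 for *Syce1*, 0.189 for *Syce2*). *Syce2* overlaps *Gcdh* and *Syce1* overlaps Gm29799 on the opposite strand. *Sycp2*, the partner of *Sycp3* in the lateral element, averaged 8.72 to 30.6 and was not called. *Sycp1*, the transverse filament protein, was at 0 in both regions of *Kdm5c*-KO mouse 2 and between 1.97 and 46.6 normalised counts in every other library, and it was not called.

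The meiotic cohesin *Rec8* (chr14:55618037-55625395), which holds sister chromatids together, was called in the hippocampus. For the hippocampus of WT mice 1 to 4 the values were 5.62, 8.63, 5.41 and 4.24, for *Kmt2a*-HET 0, 4.53, 1.86 and 0, for *Kdm5c*-KO 25, 8.11, 16.8 and 8.52 and for DM 5.08, 2.78, 10.5 and 8.34. For the amygdala of WT mice 1 to 4 the values were 24.7, 45.6, 26.9 and 13.4, for *Kmt2a*-HET 19.08, 21.5, 29.3 and 26.9, for *Kdm5c*-KO 14.2, 37.3, 62.8 and 62.4 and for DM 44.3, 22.8, 23.9 and 47.4. Groups overlapped in both regions. The hippocampal log2 difference was 1.56 ± 0.49 (*p-adj* = 0.0679), lost without any 1 of 9 libraries (WT 1, 3 or 4, *Kmt2a*-HET 1 or 4, *Kdm5c*-KO 1 or 3, DM 3 or 4, *p-adj* 0.113 to 0.225), in edgeR (0.228) and with the replicate block (0.123), and the amygdala difference was 0.60 (*p-adj* = 0.639). The other meiotic cohesin genes were not called: *Stag3* averaged 14.8 to 27.0 and *Smc1b* 1.71 to 4.80 normalised counts over the groups. *Hormad2*, an axis protein, averaged at most 1.56, and *Hormad1* had counts in DM amygdala alone, with a mean of 0.538.

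Of the recombination genes, *Msh4* and *Mei1* were called in the amygdala. *Msh4* (ENSMUSG00000005493.15, chr3:153857149-153906138), a mismatch repair homologue that stabilises crossover intermediates, had amygdala values of 0, 0, 0 and 0.956 for the WT mice, 0.867, 0, 0.887 and 0 for *Kmt2a*-HET, 5.94, 4.90, 7.72 and 1.06 for *Kdm5c*-KO and 1.97, 5.47, 3.98 and 6.46 for DM. In the hippocampus it was at 0 in all 8 intact libraries, against 3.26, 3.60, 1.98 and 4.73 for the *Kdm5c*-KO and 0, 3.70, 0.876 and 2.08 for the DM libraries. In each region 7 of 8 deficient libraries held more reads than any intact one. *Kdm5c*-KO 4 held 1 read in the amygdala, as did WT 4 and *Kmt2a*-HET 1 and 3, and its normalised value was the higher by size factor alone. In summed reads the ratio was 12.9 in the amygdala (37 against 3, exact Poisson interval 4.09 to 65.4). It was 6.39 in the hippocampus (21 against 0, with the floor of 3 counts over the 8 libraries in place of 0). The amygdala log2 difference was 3.63 ± 0.91 (*p-adj* = 0.00773), and without any 1 of 5 libraries (WT 1 or 4, *Kdm5c*-KO 3 or 4, DM 4) DESeq2 gave no adjusted p, as it gave none in the hippocampus, where the difference was 3.65 ± 1.14 (95% interval 1.41 to 5.89).

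*Mei1* (chr15:82069996-82126814), required for the double-strand breaks of meiosis, had amygdala values of 75.2, 42.7, 48.5 and 45.9 for the WT mice, 33.8, 28.2, 36.3 and 34.3 for *Kmt2a*-HET, 67.7, 98, 45.4 and 79.3 for *Kdm5c*-KO and 77.7, 54.7, 38.8 and 73.2 for DM. *Mei1* in the hippocampus stood at 23.6, 32.6, 34.6 and 76.4 (WT), 11, 32.8, 11.2 and 13.5 (*Kmt2a*-HET), 42.3, 8.11, 10.9 and 64.4 (*Kdm5c*-KO) and 15.2, 19.4, 16.6 and 15.6 (DM). The groups overlapped in both regions. Its log2 difference was 0.66 ± 0.20 in the amygdala (*p-adj* = 0.0763) and −0.23 in the hippocampus (*p-adj* = 0.970), a difference between regions of −0.90 ± 0.44 (*p-adj* = 1.0). The amygdala call was lost without any 1 of 12 libraries (all but WT 1, *Kdm5c*-KO 1 and 3, and DM 3, *p-adj* 0.118 to 0.257). Among the rest, *Tex15* averaged 36.3 to 45.3 over amygdala groups and 17.5 to 30.0 over hippocampal groups, *Dmc1*, the strand exchange recombinase, 2.97 to 15.0, and *Spo11*, which makes the breaks, 0.982 to 5.31. *Msh5*, the partner of *Msh4*, averaged 1.79 to 6.14 and was not called, nor was *Tex11*, at 1.24 to 6.15.

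None of the transcription regulators was called for *Kdm5c* loss. *Brdt*, a bromodomain protein that reads acetylated histones in spermatids, averaged 161 to 181 normalised counts over amygdala groups and 214 to 245 over hippocampal groups. *Taf7l*, a germ line variant of a TFIID subunit, averaged 0.655 to 2.91. *Sohlh2*, a helix-loop-helix factor of early germ cells, had counts in *Kdm5c*-KO hippocampus alone, with a mean of 0.495, and *Stra8* had none.

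**Figure D4:**
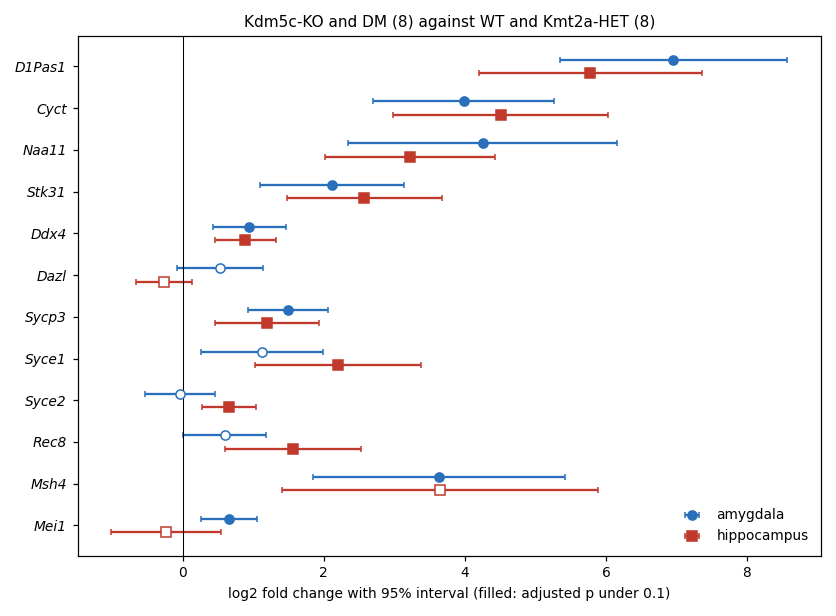
Log2 difference between the 8 *Kdm5c*-deficient and 8 *Kdm5c*-intact libraries of each region (horizontal axis) for the genes with an estimate, with 95% intervals and filled points for an adjusted p under 0.1. Filled points lie to the right of 0 in both regions, from *D1Pas1* at 6.96 and 5.78 down to *Mei1* at 0.66 in the amygdala and *Syce2* at 0.65 in the hippocampus.

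The transcript tables split these counts by isoform. For *Sycp3*, transcript ENSMUST00000020252 went from 25 summed counts in intact to 181 in deficient amygdala libraries and from 22 to 116 in the hippocampus, and its share of the gene from 24.0% to 63.5% and from 35.5% to 74.4%. A second *Sycp3* transcript, ENSMUST00000125612, held 58 and 79 amygdala counts and 34 and 32 hippocampal counts, intact first. For *Stk31*, ENSMUST00000024171 went from 2 to 46 amygdala counts and from 2 to 49 hippocampal counts, and the other 3 *Stk31* transcripts were uneven. ENSMUST00000163954 went from 3 to 18 and from 0 to 2, ENSMUST00000167846 from 8 to 19 and from 10 to 22, and ENSMUST00000172459 from 7 to 0 in the amygdala but from 2 to 23 in the hippocampus. For *Ddx4*, ENSMUST00000099166 held 302 counts in the intact libraries of either region and 515 and 568 in deficient ones, and ENSMUST00000075748 26 and 19 against 57 and 74. Isoform counts are estimates, and these sums are descriptions that were not tested. *D1Pas1*, *Cyct* and *Naa11* have 1 transcript each in the tables.

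Taken genotype by genotype, *D1Pas1* and *Cyct* were called in both regions in each of the 3 comparisons run between groups that differ in *Kdm5c*, *Kdm5c*-KO with WT, DM with WT and DM with *Kmt2a*-HET. Without the hippocampal libraries over 500 CPM of choroid plexus markers, which leaves 1 *Kdm5c*-KO and 2 DM libraries, neither was called in the hippocampus in any of the 3. *D1Pas1* then differed by 5.80 (no adjusted p), 6.40 (*p-adj* = 0.105) and 5.51 (0.219), and *Cyct* by 4.54 (no adjusted p), 5.48 (0.284) and 4.81 (0.475). Comparing *Kdm5c*-KO with WT asks what loss of the demethylase alone does: 3 of 29 genes were called in the amygdala (0.751% of all genes were called) and 3 of 29 in the hippocampus (1.01% of all genes). In the amygdala these were *D1Pas1* (6.71 ± 1.17, *p-adj* = 1.17e-05), *Cyct* (4.76 ± 1.14, *p-adj* = 0.0076) and *Stk31* (2.72 ± 0.77, *p-adj* = 0.0658). In the hippocampus they were *D1Pas1* (5.94 ± 1.15, *p-adj* = 0.000151), *Naa11* (3.5 ± 0.89, *p-adj* = 0.0197) and *Cyct* (4.15 ± 1.14, *p-adj* = 0.0426). *D1Pas1* reads in *Kdm5c*-KO hippocampus stood at a ratio of 15.1 to WT (46 reads against 0, with the floor of 3 counts over the group in place of 0). With the replicate number as a block *Stk31* in the amygdala stood at 2.61 (*p-adj* = 0.1002), which ends its call. *Stk31* there also lost its call without WT 1, 3 or 4 or *Kdm5c*-KO 1, 2 or 3 (*p-adj* 0.109 to 0.375), hippocampal *Cyct* without WT 2 or 4 or *Kdm5c*-KO 1 or 3 (0.115 to 0.183), and hippocampal *Naa11* without *Kdm5c*-KO 1 (0.138).

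DM libraries were compared with the same WT libraries, which both contrasts share, and 3 of 33 genes were called in the amygdala (0.966% of all genes) and 3 of 29 in the hippocampus (0.875%). In the amygdala these were *D1Pas1* (6.41 ± 1.17, *p-adj* = 4.69e-05), *Cyct* (4.69 ± 1.14, *p-adj* = 0.00948) and *Sycp3* (1.56 ± 0.40, *p-adj* = 0.0166). In the hippocampus *D1Pas1* (6.47 ± 1.14, *p-adj* = 1.34e-05), *Cyct* (4.95 ± 1.13, *p-adj* = 0.00353) and *Naa11* (3.19 ± 0.89, *p-adj* = 0.0564) passed. *Naa11* in DM amygdala differed from WT by 2.01 ± 1.28 and was not called (*p-adj* = 0.889). Amygdala *Sycp3* lost its call without WT 3 or DM 4 (0.117 and 0.121), and hippocampal *Naa11* without WT 1, 3 or 4 or DM 1, 3 or 4 (0.109 to 0.250). Without WT 2 of the hippocampus DESeq2 gave no adjusted p for *Cyct* and *D1Pas1*.

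DM against *Kmt2a*-HET asks what *Kdm5c* loss does on the heterozygous background, in libraries other than those compared for *Kdm5c*-KO and WT, although 1 fit to all 16 libraries sets the spread and filtering of both. In the amygdala 6 of 29 genes were called (0.845% of all genes), among them *D1Pas1* (7.21 ± 1.17, *p-adj* = 1.02e-06), *Sycp3* (1.91 ± 0.40, *p-adj* = 0.00101), *Ddx4* (1.55 ± 0.35, *p-adj* = 0.00271) and *Cyct* (3.47 ± 0.83, *p-adj* = 0.00896). The other 2 were *Naa11* (5.52 ± 1.55, *p-adj* = 0.0573) and *Dazl* (1.29 ± 0.39, *p-adj* = 0.0993). In the hippocampus 5 of 29 were called (0.603% of all genes): *D1Pas1* (5.62 ± 1.14, *p-adj* = 0.000508), *Ddx4* (1.37 ± 0.29, *p-adj* = 0.00116), *Cyct* (4.82 ± 1.13, *p-adj* = 0.00747), *Syce1* (3.45 ± 0.99, *p-adj* = 0.0887) and *Stk31* (2.90 ± 0.84, *p-adj* = 0.098). *Naa11* had 32 reads in DM amygdala, most of them in DM 3 and none in DM 2, against 0 in *Kmt2a*-HET. With the floor of 3 counts over the group in place of 0 the ratio was 11.2. The *Naa11* call was lost without any 1 of 6 libraries, all 4 of *Kmt2a*-HET, DM 1 or DM 3 (*p-adj* 0.173 to 0.475), with a log2 difference of 4.26 without DM 3. *Dazl* lost its call without 11 of the 16 libraries in turn (0.103 to 0.475), *Stk31* without 12 (0.111 to 0.401) and with the replicate block (0.151), and *Syce1* without 11 (0.101 to 0.309).

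*Kmt2a* heterozygosity alone gave no call among the 39 genes tested in each region (amygdala 0.00329% and hippocampus 0.0% of all genes). At an unadjusted p under 0.05 DESeq2 listed 5 genes for the amygdala against 3 for the hippocampus, where 926 of 30355 and 715 of 29841 genes were listed in all, and edgeR called 0. *Ddx4* had the smallest p in the amygdala (log2 difference −1.13 ± 0.35, *p-adj* = 1.0) and differed by −0.74 ± 0.30 in the hippocampus (*p-adj* = 1.0). WT amygdala library 1 stood at 113, against 33.4 to 37.9 in the other WT libraries, and without WT amygdala library 2 *Ddx4* was called lower in *Kmt2a*-HET (*p-adj* = 0.0989).

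DM and *Kdm5c*-KO mice differ by the *Kmt2a* allele on a *Kdm5c*-null background, and 0 of 39 genes were called between them in either region (0.00329% and 0.0067% of all genes). At an unadjusted p under 0.05 DESeq2 listed 1 gene in each region, of 694 of 30355 (amygdala) and 1352 of 29841 (hippocampus) in all, and edgeR called 0. A p above the threshold does not show that levels were alike, and the intervals were wide. *D1Pas1* differed by −0.29 in amygdala libraries (95% interval −1.46 to 0.87) and by 0.53 (−0.57 to 1.62) in hippocampal ones. *Cyct* differed by −0.07 (−1.16 to 1.03) and 0.80 (−0.34 to 1.94), and *Naa11* by −1.38 (−3.69 to 0.93) and −0.31 (−1.78 to 1.16). The interval of *Dazl* in the hippocampus, 0.08 to 1.13 around 0.61, lay above 0, without a call. The interaction term, which asks whether *Kdm5c* loss acts differently on the 2 *Kmt2a* backgrounds, was called for 0 of 39 genes in each region (0.00329% and 0.0% of all genes, 0 by edgeR), with 2 genes in each region at an unadjusted p under 0.05, of 857 of 30355 (amygdala) and 571 of 29841 (hippocampus) in all. These were *Dazl* (95% intervals 0.44 to 2.56 and 0.06 to 1.52) and *Ddx4* (0.23 to 2.11 and 0.14 to 1.71), without a call.

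**Figure D5:**
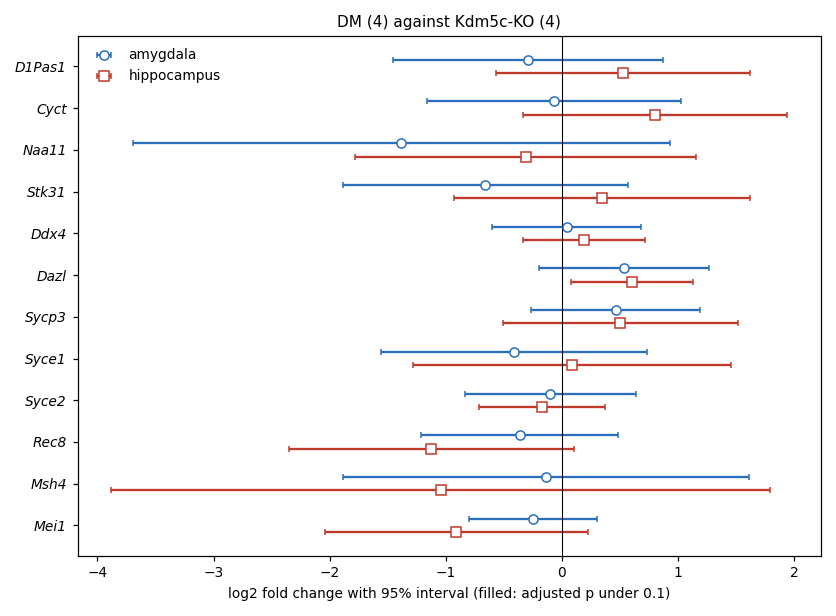
Log2 difference between the DM and *Kdm5c*-KO libraries (4 against 4) of each region, with 95% intervals, for the 12 genes with values in every library. No point is filled, as none had an adjusted p under 0.1, and the interval of *D1Pas1* runs from −1.46 to 0.87 (amygdala) and from −0.57 to 1.62 (hippocampus).

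Choroid plexus RNA moved with the genotypes in the hippocampus. The 6 choroid plexus markers summed to 37.7 to 1084 CPM in intact and 45.6 to 4567 CPM in deficient hippocampal libraries, with medians of 86.5 and 839, and 5 of the 6 were called higher with *Kdm5c* loss. In the amygdala they ranged from 37.3 to 50.7 CPM in intact and from 35.5 to 1837 in deficient libraries, and none was called. With the libraries over 500 CPM left out, an alternative chosen after seeing the data, 8 intact and 7 deficient amygdala libraries remained, and *Cyct*, *D1Pas1*, *Msh4*, *Naa11*, *Stk31* and *Sycp3* stayed called, while *Ddx4* (0.87, *p-adj* = 0.109) and *Mei1* (0.58, *p-adj* = 0.236) did not. In the hippocampus 7 intact and 3 deficient libraries remained. *D1Pas1* (5.62, *p-adj* = 0.00049), *Cyct* (4.72, *p-adj* = 0.00785) and *Ddx4* (1.28, *p-adj* = 0.00995) stayed called there. The differences of *Naa11* (2.54, *p-adj* = 0.268), *Stk31* (2.82, *p-adj* = 0.23), *Syce1* (2.62, *p-adj* = 0.381) and *Syce2* (0.68, *p-adj* = 0.851) kept their direction, as did those of *Rec8* (1.58) and *Sycp3* (0.86), without a call. The comparison of *Kdm5c*-KO with WT then kept 1 hippocampal *Kdm5c*-KO library, mouse 2, and gave −0.33 for *Naa11*. The part of choroid plexus RNA in the values of *Naa11*, *Stk31*, *Syce1*, *Syce2*, *Rec8* and *Sycp3* was not tested.

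Markers of spermatids and sperm did not follow these genes. No gene of that marker list exceeded 4 counts in an amygdala library or 3 in a hippocampal one, *Prm2*, *Tnp1*, *Akap4* and *Smcp* were at 0 in all 32 libraries, and none was called. The 8 markers summed to at most 0.26 CPM in any amygdala library and 0.236 CPM in any hippocampal library. Of 8 Sertoli and Leydig cell markers, *Amh* was called higher with *Kdm5c* loss in both regions, and of 8 oocyte markers, *Ooep* in the hippocampus.

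A few of the genes differed in level between the regions of WT mice. Of 27 genes tested between WT hippocampus and WT amygdala 3 were called, against 16.9% of all genes. *Tdrd9*, a helicase of the piRNA pathway, averaged 17.2 ± 1.7 normalised counts (SD, n = 4) in the amygdala and 2.82 ± 1.68 in the hippocampus, a log2 difference of −2.46 ± 0.63 (*p-adj* = 0.0013). *Rec8* averaged 27.7 ± 13.4 and 5.98 ± 1.87 (−2.12 ± 0.55, *p-adj* = 0.00155). *Brdt* was higher in the hippocampus, at 239.7 ± 43.0 against 175.8 ± 18.2 (0.54 ± 0.18, *p-adj* = 0.0233), and lost its call without WT 2 or WT 3 (0.416 and 0.227).

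The rest of the pathway was followed with 51 further genes of meiosis and piRNA biogenesis. With *Kdm5c* loss 10 of 35 with an adjusted p were called higher and 0 lower in the amygdala, where 1.68% of all genes were called, and 7 of 35 higher and 1 lower in the hippocampus (2.66% of all genes), with 7 higher in both regions. The median log2 difference of the list was 0.19 and 0.14, against −0.01 over all genes. *Tex14*, which keeps the bridges between germ cells open, rose by 3.27 ± 0.21 in the amygdala (*p-adj* = 1.06e-49) and 3.57 ± 0.23 in the hippocampus (*p-adj* = 4.64e-50). *Tex14* in the amygdala stood at 7.91, 10.7, 17.2 and 12.4 (WT), 10.4, 9.03, 11.5 and 26.9 (*Kmt2a*-HET), 128, 116, 147 and 88.8 (*Kdm5c*-KO) and 119, 137, 125 and 162 (DM). Its deficient libraries were all above its intact ones in both regions. *Hsf2bp*, a recombination factor that works with BRCA2, rose by 2.93 ± 0.36 and 2.45 ± 0.44 (*p-adj* = 5.67e-13 and 9.48e-06), and *Ccnb1ip1*, a crossover factor, by 2.67 ± 0.37 and 2.66 ± 0.43 (2.31e-10 and 2.85e-07). *Tcfl5*, a spermatogenic transcription factor, rose by 1.89 ± 0.29 and 2.98 ± 0.55 (2.13e-08 and 1.91e-05). The piRNA factors *Fkbp6*, *Rnf17* and *Pnldc1*, the last a trimmer of piRNA ends, rose by 4.76 ± 0.82, 1.51 ± 0.28 and 1.09 in the amygdala (*p-adj* = 2.82e-06, 2.18e-05 and 0.0401) and by 2.94 ± 0.74, 1.72 ± 0.27 and 1.23 in the hippocampus (0.00805, 5.54e-08 and 0.0208). *Dmrtb1* (1.02), *Rec114* (1.59) and *Pld6* (0.64) rose in the amygdala (0.00378, 0.00454 and 0.00589), and *Zcwpw1*, a reader of histone methylation at meiotic breaks and named after its values were seen, was lower in the hippocampus (−0.42 ± 0.12, *p-adj* = 0.0346).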

How the data were processed

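Total RNA of micro-dissected amygdala and hippocampus was enriched for polyA and made into directional libraries with ERCC spike-ins. The authors aligned reads to mm10 with STAR 2.5.3a, kept unique reads without duplicates and, per their methods, counted with Subread 1.5.0. The deposited values are expected counts per gene and per transcript (the estimator and annotation release are not given in the sources used here), in 1 table per region and level. Of the gene-level values 7.08% were not whole, and all values were rounded.

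Symbols came from GENCODE M21. DESeq2 1.42.0 (2-sided Wald test, Benjamini-Hochberg *p-adj* under 0.1) was fitted to all 16 libraries of a region with 4 genotype groups, or with additive *Kmt2a* and *Kdm5c* terms for *Kdm5c* loss, in R 4.3.3. A *p-adj* of NA from DESeq2 stayed NA. Normalised counts are counts divided by DESeq2 size factors, and TPM were computed from counts and exon lengths. Regions were compared over the 8 WT libraries, or, for *Kdm5c* loss by region, over all 32. Values after ± are standard errors for differences and SD for levels. Intervals and floors cover counting error only. Replicates are separate mice.

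Alternatives were edgeR 4.0.16, ERCC or TMM size factors, a fit to only the 2 groups compared, a filter of 10 counts in 4 libraries, no independent filtering, *p-adj* under 0.05, a replicate block, leaving out each library, leaving out mice numbered 1, and leaving out libraries over 500 CPM of choroid plexus markers, the last chosen after seeing the data. Replicate numbers were checked for pairing: the correlation of deviations passed 0.1 in all 4 pairs for WT and *Kdm5c*-KO amygdala alone among genotype pairs. Between the 2 regions of a mouse it passed 0.1 in 13 of 16 mice, and the block of the region comparisons was the mouse. The main fits have no block, and the blocked value is given where it ends a call.

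The 42 genes and all lists were chosen with earlier results of these data known. Values in every library are given for genes called in a genotype comparison and for *D1Pas1*, *Naa11* and *Cyct*, group values for up to 6 genes called between regions and a range for the rest, and up to 10 further pathway genes are named by smallest *p-adj*. *Zcwpw1*, the 1 called lower, falls outside that rule and was added once its values were known. Tested on simulated data, DESeq2 recovered 74% of genes changed 2-fold and 100% changed 4-fold for *Kdm5c*-KO against WT in the amygdala (29499 genes), and 17.1% of its calls were false (edgeR 4.95%). For *Kdm5c* loss in the hippocampus (29006 genes) it recovered 90% and 100%, and 13.2% of calls were false (edgeR 10%). The changed genes were drawn only from those above a minimum mean count, and 1 fixed spread was set for all genes. Many of the 42 genes had lower counts, so these shares do not carry over to them. A gene without a call may still have changed.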

Additional observations from a re-analysis of the deposited data

Results flagged for a closer look

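In 5 of 80 groups of 4 libraries 1 library stood apart from the other 3 by Dixon's ratio, where chance gives about 1 in 20 (5%). *D1Pas1* in *Kdm5c*-KO amygdala replicate 3 was at 69.5 normalised counts, against 17.8 to 20.6 in the others. *Ddx4* in WT amygdala replicate 1 was at 112.7, against 33.4 to 37.9. *Mei1* in *Kmt2a*-HET hippocampus replicate 2 was at 32.8, against 11 to 13.5. *Naa11* in WT amygdala replicate 1 was at 6.92, against 0 to 0.971. *Syce1* in *Kdm5c*-KO hippocampus replicate 4 was at 20.8, against 6.92 to 8.69.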

How the results depend on the processing

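Numbers of the 42 genes called depended on the scaling and on single libraries. Scaled by ERCC spike-ins, the count fell to 1 for DM against WT (3 in the main fit, both regions), where 0.0231% and 0.0202% of all genes were called (0.966% and 0.875% in the main fit). For DM against *Kmt2a*-HET it fell to 1 and 0 (6 in the amygdala, 5 in the hippocampus), where 0.0198% and 0.00672% of all genes were called (0.845% and 0.603%). For *Kdm5c* loss it fell to 2 and 4 (8 and 9), where 0.160% and 0.104% were called (1.68% and 2.66%). Between WT regions it fell to 0 (3), where 1.48% were called (16.9%). The median of all genes with ERCC scaling stood at −0.51 (DM against WT) and −0.71 (DM against *Kdm5c*-KO) in the hippocampus and at 0.76 between regions. For *Kdm5c*-KO against WT the low-count filter gave 1 (3, amygdala), where 0.891% of all genes were called (0.751% in the main fit). Leaving out mice numbered 1 gave 1 (3, hippocampus), where 0.833% of all genes were called (1.01%). For DM against *Kmt2a*-HET leaving out mice numbered 1 gave 3 in each region (0.750% and 0.780% of all genes). In the hippocampus edgeR, no independent filtering and *p-adj* under 0.05 gave 3 each (0.177%, 0.318% and 0.349% of all genes). Without the choroid plexus libraries the hippocampal counts were 0 (DM against WT), 1 (DM against *Kmt2a*-HET) and 3 (*Kdm5c* loss), with few libraries left. Of all genes 0.311%, 0.288% and 0.625% were called in these fits. The differences of the genes that lost their calls kept their direction with the exception of *Naa11* in *Kdm5c*-KO against WT. In DM against WT they were 6.40 (*D1Pas1*), 5.48 (*Cyct*) and 3.49 (*Naa11*), and in *Kdm5c*-KO against WT 5.80 (*D1Pas1*) and 4.54 (*Cyct*). For *Kdm5c*-KO the setting leaves 1 library, mouse 2, in which *Naa11* was already low (1.80), so the *Naa11* value of −0.33 for *Kdm5c*-KO against WT rests on that library. The cause of the other changes was not tested. Leaving out 1 library gave 0 to 1 calls for *Kmt2a*-HET against WT in the amygdala (*Ddx4*, *p-adj* = 0.0989 without WT replicate 2), 2 to 4 (amygdala) and 1 to 3 (hippocampus) for *Kdm5c*-KO against WT, 2 to 4 and 1 to 4 for DM against WT, 4 to 6 and 3 to 5 for DM against *Kmt2a*-HET, 6 to 8 and 6 to 9 for *Kdm5c* loss and 2 to 4 between regions. The low ends of 1 came without *Kdm5c*-KO replicate 1 and without WT replicate 2 in the hippocampus. The share of all genes called was not set beside these leave-one-out counts, so they do not set the 42 apart from the rest. On leaving out 1 library, detected genes ranged from 30 to 32 in the amygdala and stayed at 29 in the hippocampus. The cut-off moved detection further. At least 10 counts in at least 4 libraries left 22 (amygdala) and 21 (hippocampus) of the 42, and at least 1 count in at least 1 library gave 39 in each region. With the replicate block, which also ends DESeq2's filter on outlying counts, the counts were 3 and 4 (*Kdm5c*-KO against WT), 3 and 4 (DM against WT), 6 and 6 (DM against *Kmt2a*-HET), 8 and 7 (*Kdm5c* loss) and 3 (regions). In the genotype comparisons calls over all genes became more common: 1.66% and 1.67% (0.751% and 1.01% without the block), 1.98% and 1.55% (0.966% and 0.875%), 1.84% and 1.48% (0.845% and 0.603%) and 2.00% and 2.81% (1.68% and 2.66%). Between regions they became less common, at 15.9% (16.9%). The block ended the calls of *Stk31* for *Kdm5c*-KO against WT in the amygdala (*p-adj* = 0.1002) and, in the hippocampus, of *Stk31* for DM against *Kmt2a*-HET (2.72, 0.151) and of *Sycp3* (1.10, 0.12) and *Rec8* (1.6, 0.123) for *Kdm5c* loss. It ended no other call. With only the 2 groups compared the counts were 2 (amygdala) and 3 (hippocampus) for *Kdm5c*-KO against WT, 3 and 4 for DM against WT, the 4 including *Mei1* as lower, and 6 and 4 for DM against *Kmt2a*-HET, where 0.457% and 1.13%, 0.611% and 1.67%, and 3.25% and 0.554% of all genes were called. Leaving out 1 library moved the fold by over 1.5 times without ending the call for *D1Pas1* in the amygdala (*Kdm5c*-KO against WT 7.41 without WT 4 and 5.96 without *Kdm5c*-KO 3, DM against WT 7.11 without WT 4), and, for DM against *Kmt2a*-HET, for *D1Pas1* (hippocampus, 6.27 without *Kmt2a*-HET 3) and *Cyct* (4.35 in the amygdala without *Kmt2a*-HET 3, 6.27 in the hippocampus without *Kmt2a*-HET 1), as it did for *Naa11* with *Kdm5c* loss (5.67, amygdala without WT 1). It did so with the call lost for DM against *Kmt2a*-HET in *Naa11* (4.26, amygdala without DM 3), *Stk31* (hippocampus without *Kmt2a*-HET 2) and *Syce1* (4.05, hippocampus without *Kmt2a*-HET 1). 14 of 32 libraries correlated best with their own number. Of 1052 single-gene settings over 43 called results, 838 kept the call, 213 lost it with the same direction and 1, the *Naa11* value above, reversed.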
